A study of Mus musculus with 2 samples.

Results

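The genes described here encode 3 groups of drug-metabolising and lipid-metabolising enzymes: cytochrome P450 enzymes (Cyp), UDP-glucuronosyltransferases (Ugt) and sulfotransferases (Sult). Members were all probe sets whose single gene symbol in the array's annotation begins with Cyp plus a number and a letter, with Ugt plus a number, or with Sult plus a number. This name rule used no measured value and gave 124 of 34945 named probe sets, or 96 of 18193 genes: 72 Cyp, 11 Ugt and 13 Sult genes. Cyp51, which has no letter after its number, falls outside the rule.

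The samples were vascular cells that had been flow-sorted from the right lung lobes of C57BL/6J mice whose left lobe had been resected (pneumonectomy). One group was labelled old and the other young, with 1 Affymetrix array per group. As described, both shared strain, tissue and operation, but the tissue of origin of each array was not tested. The sources used here do not state the ages, the time after surgery, the sorting markers or how many mice each array holds. Unoperated mice were not analysed here. With 1 array per group there is no replicate check and no test, and every difference below describes these 2 arrays.

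P450 enzymes are haem proteins that use oxygen and electrons from a partner protein to oxidise drugs, fatty acids, sterols, steroids and retinoids. Most UGT enzymes then attach glucuronic acid, and cytosolic sulfotransferases attach sulfate, which makes the products more water-soluble. Hepatocytes are the best-known site of most of these enzymes. Airway club cells of the lung are known for Cyp2f2 and Cyp4b1, and endothelial cells for fatty acid epoxygenases of the Cyp2j and Cyp2c subfamilies and for Cyp1b1.

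To show the control regions of the genes that differed most, the promoter windows of the members 8-fold or more apart are printed here, together with that of Cyp1b1, which was higher on the young array. Each window runs from 250 bases before to 50 bases after the annotated start, 5′ to 3′, from RefSeq on build GRCm38.p6. They lie at chr4:115647672-115647971, minus strand (Cyp4b1), chr7:126676369-126676668, minus strand (Sult1a1), chr6:84593761-84594060, minus strand (Cyp26b1), chr5:145879805-145880104, minus strand (Cyp3a11), chr7:140763569-140763868, plus strand (Cyp2e1) and chr17:79715012-79715311, minus strand (Cyp1b1). Capitals mark matches on either strand to the TATA box letters TATAAA, the aryl hydrocarbon receptor core GCGTG, the nuclear receptor half-site AGGTCA and the HNF4-type letters CAAAGTCCA, where HNF4 is a liver-enriched nuclear receptor. Cyp2d22, also over 8-fold apart, has no entry among the windows used.
Cyp4b1: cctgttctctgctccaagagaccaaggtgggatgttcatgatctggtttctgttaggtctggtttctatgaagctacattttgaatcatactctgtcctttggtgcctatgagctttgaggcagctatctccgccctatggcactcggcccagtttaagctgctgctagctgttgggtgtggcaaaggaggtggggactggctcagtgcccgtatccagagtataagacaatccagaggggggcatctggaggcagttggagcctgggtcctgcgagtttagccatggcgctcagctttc
Sult1a1: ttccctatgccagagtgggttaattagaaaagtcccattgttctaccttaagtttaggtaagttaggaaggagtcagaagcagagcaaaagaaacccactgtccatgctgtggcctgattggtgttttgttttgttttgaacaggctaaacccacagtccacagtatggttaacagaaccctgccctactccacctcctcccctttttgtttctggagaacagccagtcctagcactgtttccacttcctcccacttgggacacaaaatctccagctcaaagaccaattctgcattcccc
Cyp26b1: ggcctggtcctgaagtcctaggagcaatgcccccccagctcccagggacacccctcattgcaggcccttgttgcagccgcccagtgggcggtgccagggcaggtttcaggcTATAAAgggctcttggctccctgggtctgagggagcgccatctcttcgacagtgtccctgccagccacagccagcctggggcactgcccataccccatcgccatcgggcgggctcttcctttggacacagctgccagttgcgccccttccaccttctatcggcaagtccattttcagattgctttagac
Cyp3a11: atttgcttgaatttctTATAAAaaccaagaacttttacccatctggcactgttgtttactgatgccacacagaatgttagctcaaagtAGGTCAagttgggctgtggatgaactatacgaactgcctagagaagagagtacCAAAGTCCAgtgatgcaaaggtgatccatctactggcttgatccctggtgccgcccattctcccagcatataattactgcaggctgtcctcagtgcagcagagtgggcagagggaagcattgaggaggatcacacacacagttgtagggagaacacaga
Cyp2e1: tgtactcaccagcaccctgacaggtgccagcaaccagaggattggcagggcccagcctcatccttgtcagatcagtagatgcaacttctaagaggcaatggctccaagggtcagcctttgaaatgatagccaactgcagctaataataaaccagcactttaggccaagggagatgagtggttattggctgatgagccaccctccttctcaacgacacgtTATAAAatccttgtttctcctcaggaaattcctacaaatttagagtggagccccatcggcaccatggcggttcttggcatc
Cyp1b1: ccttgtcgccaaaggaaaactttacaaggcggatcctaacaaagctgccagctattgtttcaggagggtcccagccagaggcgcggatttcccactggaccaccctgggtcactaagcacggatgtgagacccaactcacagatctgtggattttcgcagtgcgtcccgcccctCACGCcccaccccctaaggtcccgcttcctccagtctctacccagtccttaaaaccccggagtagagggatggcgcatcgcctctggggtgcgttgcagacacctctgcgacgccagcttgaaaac

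In the Cyp2e1 window the TATAAA letters began 31 bases before the start, a usual place for a TATA box, whereas those of Cyp26b1 began 139 and those of Cyp3a11 began 234 bases before it. The Cyp3a11 window also held AGGTCA at 162 and CAAAGTCCA at 109 bases before the start. The only match in the Cyp1b1 window was the GCGTG core, 76 bases before the start. The windows of Cyp4b1 and Sult1a1, the pair with the largest measured ratios, held none of these letters.

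Windows were found for 72 of the 96 members. TATAAA was present in 24 of these 72 (33.3%) against 14.2% of 27025 promoters of all genes. CAAAGTCCA was in 6 of the 72 (8.33%) against 0.477% of all promoters, AGGTCA in 26.4% against 16.0%, and GCGTG in 22.2% against 32.5%. The palindromic HNF1 motif, also searched, was in 0 of the 72 windows and in 2 of all promoters. Members past 2-fold toward old (17 windows) and members below the floor on both arrays (38 windows) held TATAAA in 41.2% and 31.6%, AGGTCA in 17.6% and 28.9%, GCGTG in 11.8% and 26.3%, and CAAAGTCCA in 5.88% and 7.89%. Member windows had a median of 2 CpG dinucleotides against 7 over all promoters. Neighbouring paralogs share promoter sequence, so these shares are not over independent genes, and a match is a description of letters only.

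Signals are MAS5 intensities, scaled so that the median ratio between the arrays was 1 over probe sets at or above the median signal of both arrays. The floor below which values are not ordered was 73.7 signal units, the higher of the 2 arrays' median signals after scaling. Each gene is represented by 1 probe set, and log2 ratios are old minus young. Where 1 array alone exceeded the floor, the fold was computed against the floor value and is written as at least that size.

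More of these enzymes had signal on the old array than on the young. Of the 96 member genes, 40 (41.7%) were above the floor on the old array and 12 (12.5%) on the young, while over all 18193 genes the shares were 62.9% and 58.6%. Above the floor on the old array only were 30 members, against 7.95% of all genes, and on the young array only 2 members, against 3.60% of all genes. Both arrays measured 10 members, and 54 were below the floor on both. The 30 had old signals from 76.1 to 1724 (median 141) and young signals from 0.570 to 68.0 (median 11.8). In cells sorted in bulk, fewer cells of a type and less RNA per cell cannot be told apart.

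By the 2-fold rule, 19 members were higher on the old array and 2 were higher on the young array, out of 42 above the floor on at least 1 array. Over all 12105 genes so measured, the shares were 16.0% toward old and 11.3% toward young. At 8-fold or more, 6 members lay toward old (3.82% of all genes) and 0 toward young. Of the 19, 15 were above the floor on the old array only and so could differ in 1 direction only. Among the 10 members above the floor on both arrays, 4 were higher on the old (Cyp4b1, Sult1a1, Cyp4f13 and Cyp4v3), 2 on the young (Cyp39a1 and Cyp1b1) and 4 within 2-fold. Of all 10004 genes measured on both arrays, 11.7% lay 2-fold or more toward old and 10.6% toward young. The median log2 ratio of these 10 members was 0.43, against -0.02 over the 10004 genes.

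Markers of several other cell types were higher on the old array, as the members were. Of 15 hepatocyte markers, 14 were above the floor on the old array and 1 (Apoa2) on the young, and their summed signal was 25010 against 569. Alb had 8900 on the old array and 20.5 on the young. Liver sinusoidal endothelial markers were above the floor for 12 of 12 on the old and 6 of 12 on the young array (summed signal 205371 against 29630), with Clec4g at 41144 and 792. Of 10 pan-leukocyte markers, 10 were above the floor on old and 5 on young (36045 against 2203), and of 10 macrophage markers 10 and 2 (19958 against 575). Fibroblast markers were above it for 7 and 1 of 8 (22871 against 313), and mesothelial markers for 6 and 1 of 7 (12375 against 149). Ptprc, the leukocyte gene for CD45, had 1403 against 0.840. The part of these cells in the member signals was not tested, nor was the tissue of origin of either array.

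Club cell markers were above the floor for 1 of 8 on the old array and 0 on the young (summed signal 436 against 161). The 1 was Aldh1a7, also in the list of other enzymes, with 298 on old and a value below the floor on young, and Scgb1a1, their defining secretory protein gene, had 7.74 and 1.82. Any part of club cells in the Cyp4b1 and Cyp2f2 signals was not tested. Of 7 alveolar type 2 markers, 4 were above the floor on the old array and 1 on the young, and Sftpc was below it on both (18.4 and 10.8). All 12 pan-endothelial markers were above the floor on both arrays, with a summed signal of 149378 on old against 87921 on young. Pecam1 had 6049 and 6239 and Cdh5 had 12534 and 9951, both within 2-fold. The list as a whole was not level: 5 of the 12 lay past 2-fold toward old (Robo4 9.12-fold, Tek 5.91-fold, Esam 2.68-fold, Eng 2.54-fold and Kdr 2.21-fold), and Emcn lay 2.17-fold toward young. The part of these endothelial differences in the member signals was not tested. Of 7 lymphatic markers, 5 lay past 2-fold toward young (summed signal 35086 against 64662, above the floor for 5 and 7 of 7), the direction of Cyp1b1 and Cyp39a1, and their part was not tested. Lyve1 was listed for liver sinusoidal but also for lymphatic endothelium.

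**Figure D1:**
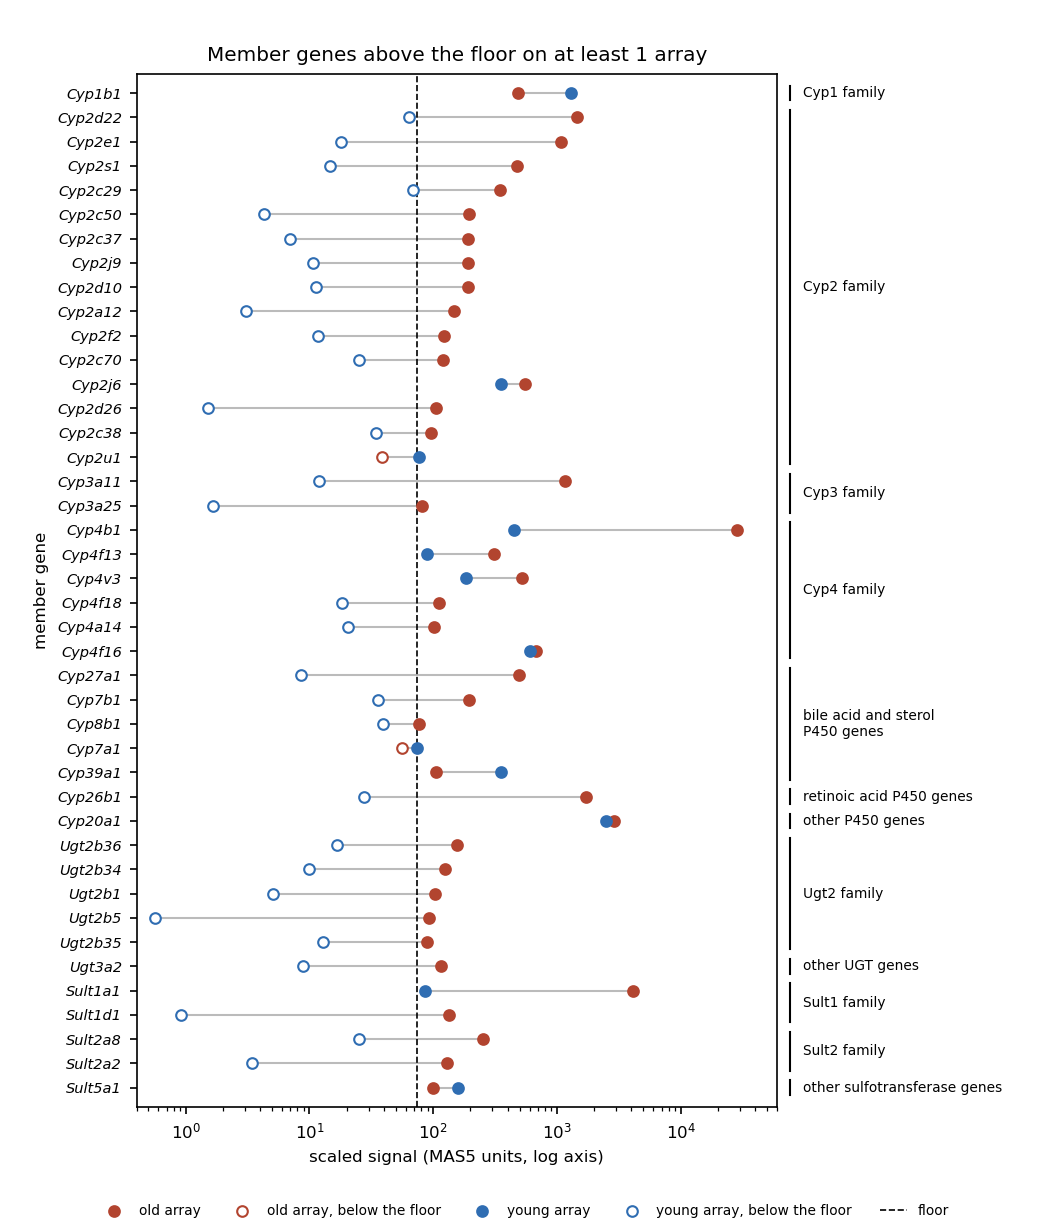
Scaled MAS5 signal (log axis) of the 42 member genes above the floor on at least 1 array, grouped by family, with 1 red point for the old and 1 blue point for the young array and the floor of 73.7 as a dashed line. Open points lie below the floor, where values have no order, and 30 of the 42 genes are filled on the old array only.

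The Cyp4 family, whose enzymes hydroxylate fatty acids at their far end, held the largest ratio. Cyp4b1, a lung-abundant member that also activates some plant and industrial toxins, reached 28264 on the old array against 448 on the young, a ratio of 63.2-fold. Both values were well above the floor, so this ratio is measured and not a bound. It rests on a single probe set.

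Cyp4f13 had 308 on the old array and 89.9 on the young (3.43-fold). Cyp4v3, the mouse counterpart of a retinal fatty acid hydroxylase, had 526 and 184 (2.86-fold), and its second probe set gave 2.15-fold in the same direction. Cyp4f16 was within 2-fold, with 672 on the old array and 610 on the young, and its second probe set had 206 and 116 (1.78-fold toward old). Of the 4 Cyp4 genes measured on both arrays, 3 were thus past 2-fold toward old, against 11.7% of all genes so measured. The young signals of Cyp4f13 (89.9) and of the second Cyp4v3 probe set (92.7) were close to the floor of 73.7.

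Cyp4a14, a fatty acid hydroxylase induced through the receptor PPAR alpha, reached 101 on the old array against 20.6, under the floor, on the young (at least 1.37-fold). Cyp4f18, a leukotriene-inactivating enzyme of myeloid cells, reached 111 against 18.4 (at least 1.51-fold). The other 7 Cyp4 members (Cyp4a12a, Cyp4a31, Cyp4f14, Cyp4f15, Cyp4f39, Cyp4f41-ps and Cyp4x1) were below the floor on both arrays, with signals up to 49.4.

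The Cyp2 family, the largest group of foreign-compound and fatty acid P450 genes, had 35 members, of which 14 were above the floor on the old array and 2 on the young. Cyp2d22, a mouse counterpart of the human drug-oxidising CYP2D6, had 1442 on the old array and 63.6, below the floor, on the young (at least 19.6-fold). Its second probe set had 2747 and 19.5, a bound of 37.3-fold. Both probe sets of this gene were thus high on the old array only.

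Cyp2e1, which oxidises ethanol and small solvents, had 1076 on the old array and 18.0 on the young (at least 14.6-fold). Cyp2s1, known from epithelia, had 479 and 14.7 (at least 6.50-fold). Cyp2c29, an arachidonic acid epoxygenase, had 346 and 68.0 (at least 4.70-fold). The young signals of all 3 were below the floor.

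Lower on the scale of bounds were 5 Cyp2 genes between 148 and 195 on the old array. Cyp2c50, an epoxygenase, had 195 on the old array and 4.27 on the young (at least 2.65-fold), and Cyp2c37 had 192 and 6.98 (at least 2.61-fold). Cyp2j9 had 192 and 10.7 (at least 2.61-fold), Cyp2d10 had 190 and 11.4 (at least 2.58-fold), and Cyp2a12, a hepatic steroid hydroxylase, had 148 and 3.08 (at least 2.01-fold). These 5 genes are all below the floor on the young array. Cyp2a12 lay just past the 2-fold rule and was under it with loess scaling (log2 ratio 0.97).

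Cyp2j6, a fatty acid epoxygenase, was the single Cyp2 member measured on both arrays, with 547 on the old and 350 on the young (1.56-fold). Its 2 probe sets had log2 ratios of 0.45 and 0.64. Cyp2f2, the club cell P450 that activates naphthalene, reached only 123 on the old array and 11.8 on the young (at least 1.67-fold). Cyp2c70 (119), Cyp2d26 (105) and Cyp2c38 (95.7) were likewise above the floor on the old array only, with bounds under 2-fold, and Cyp2u1 (76.3) on the young only. The remaining 20 members, among them Cyp2b10, the classical target of the receptor CAR, and the vitamin D 25-hydroxylase gene Cyp2r1, were below the floor on both arrays. The full set of these 20 was completed by Cyp2b9, Cyp2b13, Cyp2b19, Cyp2c23, Cyp2c39, Cyp2c54, Cyp2c55, Cyp2c65, Cyp2c68, Cyp2d9, Cyp2d12, Cyp2d13, Cyp2d34, Cyp2d40, Cyp2g1, Cyp2j5, Cyp2j11 and Cyp2j13.

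Of 5 Cyp3 genes, whose products oxidise a wide range of drugs and steroids, Cyp3a11 had 1168 on the old array and 11.8 on the young (at least 15.9-fold). Cyp3a25 had 81.2 and 1.65 (at least 1.10-fold), so its old signal only just exceeded the floor. Cyp3a13, Cyp3a16 and Cyp3a44 were below the floor on both, which leaves Cyp3a11 as the member of this family past 2-fold. Probes for the near-identical Cyp2c, Cyp2d, Cyp3a and Ugt2b genes may not fully separate the paralogs.

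In the Cyp1 family, induced by the aryl hydrocarbon receptor, the measured gene differed in the opposite direction. Cyp1b1, which oxidises oestrogens, polycyclic hydrocarbons and fatty acids and is known from vascular cells, had 488 on the old array and 1308 on the young (2.68-fold higher on the young). Its second probe set had 112 and 315 (2.82-fold, same direction), and the third was below the floor on both arrays. With the mean over all 3 probe sets the log2 ratio was -0.74, under the 2-fold rule. The related genes Cyp1a1 and Cyp1a2 were below the floor on both arrays.

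Genes of bile acid and oxysterol metabolism differed in both directions. Cyp27a1, the mitochondrial sterol 27-hydroxylase found in liver and macrophages, had 493 on the old array and 8.55 on the young (at least 6.69-fold), and its second probe set was below the floor on both. Cyp7b1, an oxysterol hydroxylase, had 194 and 35.8 (at least 2.63-fold), and a second probe set gave at least 2.47-fold. With the mean over all their probe sets, neither Cyp27a1 nor Cyp7b1 was called. In contrast, Cyp39a1, a 24-hydroxycholesterol hydroxylase, had 105 on the old array and 352 on the young (3.36-fold higher on the young).

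Cyp7a1, the rate-limiting enzyme of bile acid synthesis in the liver, was at the floor, with 56.3 on the old array and 74.6 on the young, and Cyp8b1, a sterol hydroxylase of the same pathway, had 76.1 and 39.5. Cyp46a1, the brain cholesterol hydroxylase, was below the floor on both. These 3 genes give no usable ratio.

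Cyp26b1, which breaks down retinoic acid, had 1724 on the old array and 27.4, below the floor, on the young (at least 23.4-fold). Its relative Cyp26a1 was below the floor on both arrays. Cyp20a1, a P450 of unknown substrate, had 2871 on the old array and 2471 on the young (1.16-fold), with a second probe set at a log2 ratio of 0.54. Steroid hormone synthesis genes (Cyp11a1, Cyp11b1, Cyp11b2, Cyp17a1 and Cyp21a1) and the vitamin D genes Cyp24a1 and Cyp27b1 were below the floor on both arrays. A value below the floor does not show that a gene was not expressed.

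**Figure D2:**
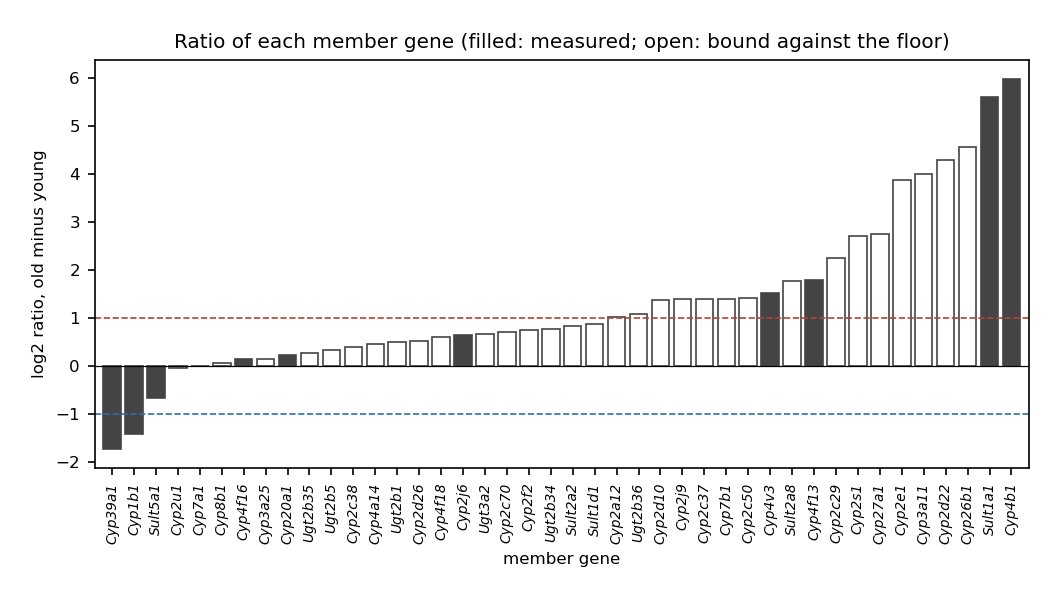
Log2 ratio (old minus young) of the 42 member genes above the floor on at least 1 array, sorted, with filled bars for genes measured on both arrays, open bars for bounds against the floor and dashed lines at 2-fold. Cyp4b1 (5.98) and Sult1a1 (5.59) are the tallest filled bars, and Cyp39a1 (-1.75) and Cyp1b1 (-1.42) are the bars past 2-fold toward the young array.

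Of the 24 conjugating enzyme genes, 3 were past 2-fold, toward the old array in each case. Among genes above the floor on at least 1 array, these were 1 of 6 UGT genes (16.7%) and 2 of 5 sulfotransferase genes (40%). Over all genes so measured the share toward old was 16.0%. Ugt2b36 and Sult2a8 were above the floor on the old array only and so could differ in 1 direction only. Sult1a1, the phenol sulfotransferase, had 4148 on the old array and 86.1 on the young, which is 48.2-fold. Its young signal was close to the floor, so the size of this fold rests on a value near 73.7. Sult2a8, a liver sulfotransferase that acts on bile acids, had 252 on the old array and 25.3 on the young (at least 3.41-fold).

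Sult1d1, which sulfates catecholamines, had 134 on the old array (at least 1.82-fold), and Sult2a2, a hydroxysteroid sulfotransferase, had 130 (at least 1.76-fold). Both were below the floor on the young array. Sult5a1 had 99.8 on the old array and 160 on the young, a difference of 1.60-fold toward the young. The other 8 sulfotransferase genes (Sult1b1, Sult1c1, Sult1c2, Sult1e1, Sult2b1, Sult3a1, Sult4a1 and Sult6b1) were below the floor on both.

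Of the 11 UGT genes whose probe sets carry a single symbol, 6 were above the floor on the old array and 0 on the young. Over all genes the shares were 62.9% and 58.6%. Probe sets of the Ugt1a locus, which carry several symbols and are described at the end, were above the floor on both arrays. Ugt2b36 had 155 on the old array and 16.6 on the young (at least 2.11-fold). Ugt2b34 (125), Ugt2b1 (104), Ugt2b5 (92.3), Ugt2b35 (88.8) and Ugt3a2 (116) were above the floor on the old array with bounds from 1.21-fold to 1.70-fold. Ugt2a3, Ugt2b37, Ugt2b38, Ugt3a1 and Ugt8a were below the floor on both.

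**Figure D3:**
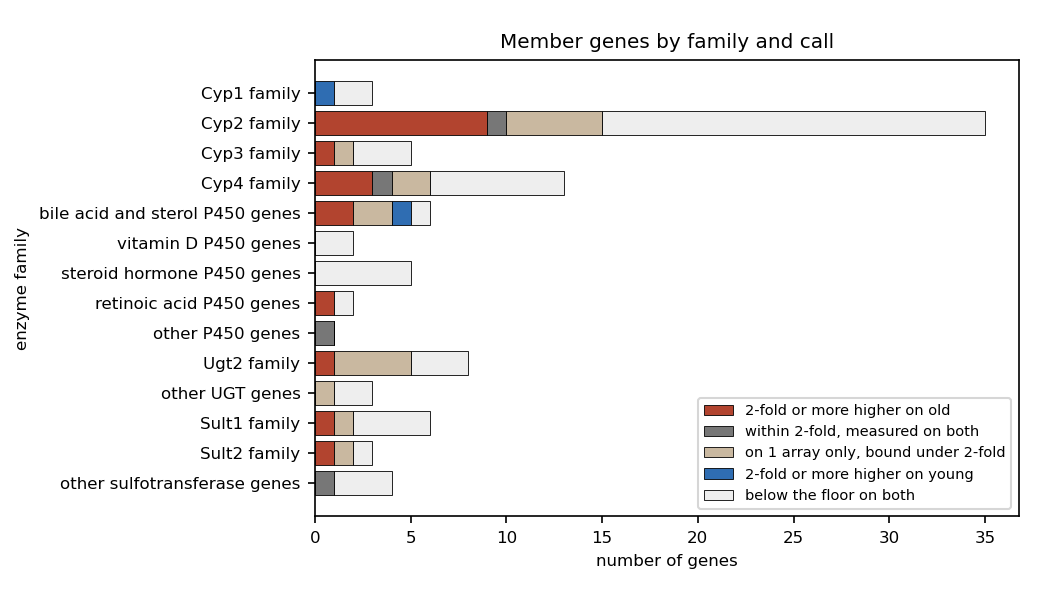
Number of member genes per enzyme family (horizontal axis), split by call: past 2-fold toward old or toward young, measured on both arrays within 2-fold, above the floor on 1 array with a bound under 2-fold, or below the floor on both. The Cyp2 family contributes 9 of the 19 genes higher on the old array, and the 2 genes higher on the young array belong to the Cyp1 and the bile acid and sterol groups.

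Many of these genes sit side by side in the genome. By the RefSeq gene order (GRCm38.p6), 66 of the 94 members placed in it had another member with at most 5 protein-coding genes between, forming 14 clusters. Within the cluster of 10 Cyp2c genes, 5 were above the floor on the old array and 0 on the young. In the cluster of 7 Cyp2d genes the numbers were 3 and 0, and in the cluster of 11 Ugt2 and Sult1 genes 6 and 0. Each of these clusters also held genes below the floor on both arrays (5, 4 and 5). Cyp4b1 lies beside Cyp4x1, Cyp4a12a, Cyp4a14 and Cyp4a31, of which only Cyp4a14 was above the floor, on the old array.

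Genes that serve these enzymes were described by lists. Of 6 genes listed as P450 electron donors or partner proteins, 0 lay 2-fold toward old and 1 toward young. The 1 was Cyb5b, an outer mitochondrial membrane cytochrome (1747 on the old and 6798 on the young, 3.89-fold). Pgrmc2, a partner protein rather than a donor (log2 ratio 0.44), Fdx1 (-0.44) and Cyb5a (0.31) were within 2-fold. The P450 reductase gene Por and the donor genes Fdxr and Fdx2 were not analysed here, so the list covers the electron supply only in part. UDP-glucuronic acid is the donor of the sugar that UGT enzymes of the Ugt1 and Ugt2 families transfer. All 6 genes of its list were within 2-fold, with Gusb (0.40), Slc35b1 (0.37), Ugdh (0.26) and Slc35b4 (-0.25) farthest from 0. Gusb, which removes glucuronic acid, and the transporter genes Slc35b1 and Slc35b4 do not make this donor. Ugdh, which makes the donor, had 1362 on the old array and 1134 on the young. Of the 8 single-symbol Ugt2 genes, 5 were above the floor on the old array, 0 on the young and 3 on neither. Over all genes, 62.9% were above it on the old array and 58.6% on the young.

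For sulfate activation, 3 of 7 measured genes were past 2-fold toward old and 0 toward young. Papss2, a synthase of the sulfate donor PAPS, had 526 on the old array and 16.2 on the young (at least 7.14-fold), with its measured probe sets between 0.93 and 2.84 in log2 ratio. Slc35b3, a Golgi PAPS transporter, lay 3.48-fold toward old (4001 against 1150), and the sulfate transporter gene Slc26a2 2.05-fold, although its probe sets ranged from -0.05 to 1.03 in log2 ratio. The other Golgi PAPS transporter gene, Slc35b2, had a log2 ratio of -0.53. Of 7 haem synthesis genes, 1 lay past 2-fold toward old (Alad, 4.68-fold, probe sets 0.70 to 2.23) and 1 toward young (Uros, 2.24-fold). Cpox (-0.92) and Alas1 (-0.91), the gene of the rate-limiting step, were within 2-fold.

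Among regulators, Ahr, the aryl hydrocarbon receptor gene, had 6112 on the old array and 1836 on the young (3.33-fold), with a second probe set at a log2 ratio of 0.31. Ahrr, the repressor gene that this receptor induces, had 34.2, below the floor, on the old array and 349 on the young (at least 4.73-fold toward young), the same side as Cyp1b1. Toward old lay the oxysterol receptor gene Nr1h3 (287 against 51.5, at least 3.90-fold) and the liver transcription factor gene Hnf4a (151 against 10.5, at least 2.05-fold). Nr1i2 (PXR), Nr1i3 (CAR), Ppara, Nr1h4 (FXR), Nr0b2 and Vdr were below the floor on both arrays. In all, 3 of 9 measured regulators were past 2-fold toward old and 1 toward young (median 0.65).

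Other drug-metabolising enzymes were split, with 13 of 33 measured genes past 2-fold toward old and 7 toward young (median 0.46). Fmo1, a flavin monooxygenase, had 3753 on the old array and 72.2 on the young (at least 50.9-fold), and Aldh1a1, a retinaldehyde dehydrogenase, 2531 and 5.66 (at least 34.3-fold). The glutathione transferase gene Gstm2 had 3413 and 208 (16.4-fold). Nqo1, a quinone reductase controlled by NRF2 and the aryl hydrocarbon receptor, had 499 on the old array and 10971 on the young (22.0-fold higher on the young). P450 genes that the name rule left out differed in both directions: the prostacyclin synthase gene Ptgis had 971 and 1.68 (at least 13.2-fold toward old), the thromboxane synthase gene Tbxas1 161 and 70.9 (at least 2.18-fold), and the sterol demethylase gene Cyp51 299 and 934 (3.12-fold toward young, probe sets -2.31 to -0.35 in log2 ratio).

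**Figure D4:**
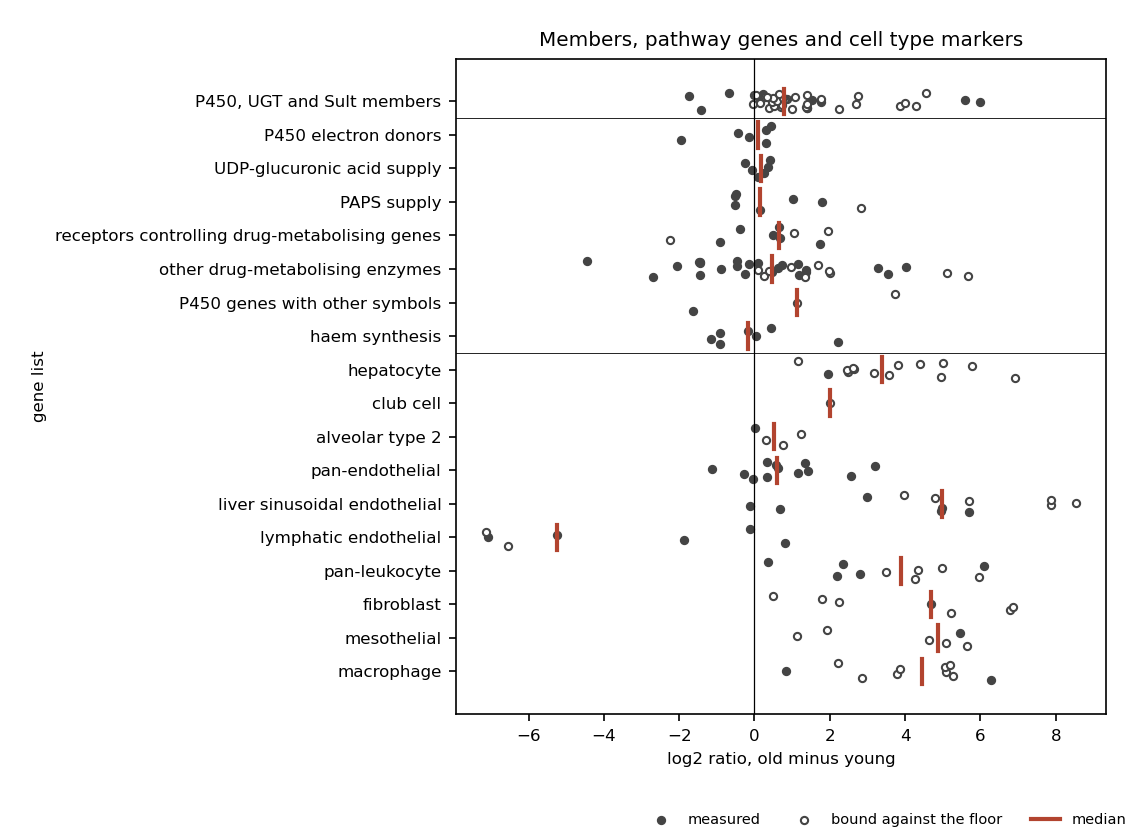
Log2 ratio (old minus young) of every gene above the floor on at least 1 array, for the members, the pathway lists and the cell type marker lists, with filled points measured on both arrays, open points bounds against the floor and a red bar at each median. The members have a median of 0.79, against 0.03 over all genes. Of them 30 are bounds that could lie toward old only, and the 10 measured on both arrays have a median of 0.43. The UDP-glucuronic acid list, all measured on both arrays, has 0.18 and the hepatocyte list, mostly bounds, 3.37. The lymphatic list lies on the young side (-5.23).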

How the data were processed

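Gene expression in vascular cells sorted from the lungs of old and young mice after pneumonectomy was measured on 2 arrays, 1 per group, so no test was possible. The authors deposited 1 linear MAS5 signal intensity for each probe set and array. GCOS 1.4 and MAS5 are named in the submitters' processing notes. The trimmed mean (2% off each end) was 500.003 on both arrays. The number of arrays limits the precision of every value. No genome build is named for these values.

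Probe sets were named from the platform annotation of 2016 when it gave 1 symbol (34958 of 45101, with 932 having several and 9211 none). All 96 members matched a RefSeq gene by identifier, and 0 symbols differed. Control probe sets (64) were left out. Arrays were scaled to a median log2 ratio of 0 over probe sets at or above the median signal of both arrays (factors 1.05, old, and 0.956, young). Each gene was read from the probe set whose log2 signal, averaged over both arrays, was highest, and values below the floor were set to it.

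Members and lists were chosen with earlier results of these data known. Named genes were all members, the up to 4 genes of each pathway list with the largest ratio, and Por, Ahr, Cyp51, Tbxas1, Ptgis, Alb, Scgb1a1, Sftpc, Pecam1, Cdh5, Clec4g and Ptprc. Genes outside this rule were picked with their values in view. Alternatives were other scalings (as deposited, equal trimmed means, quantile, loess with span 0.4), floors at the 25 and 75 percentiles, the mean over probe sets, leaving out shared-sequence probe sets (_x_at and _s_at), an offset of 0.5 times the floor, list means, and adding probe sets with several symbols. The counting was tested on simulated data. Tools were pandas 2.3.3, numpy 2.4.6, statsmodels 0.14.6, scipy 1.17.1 and matplotlib 3.10.9 under Python 3.11.15.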

Additional observations from a re-analysis of the deposited data

How the results depend on the processing

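The counts of members higher on the old and young arrays (19 and 2) were 18 to 20 and 2 under the 4 other scalings, without shared-sequence probe sets and with several-symbol probe sets. Under those 4 scalings the shares over all measured genes were 14.4% to 16.0% toward old and 11.1% to 13.3% toward young. The counts depend on the floor. With the lower floor 43 of 78 measured members were higher on the old array (18.7% of all measured genes). With the higher floor 6 of 12 were higher on the old (12.5% of all) and 1 on the young (7.68%). With the offset 32 of 42 were higher on the old (17.7% of all). The mean over probe sets left 17 of 37 on the old array (15.1% of all), without Cyp27a1 and Cyp7b1, and 1 on the young (9.98%). The member median (0.79) was 1.26 with the lower floor, 1.77 with the offset and 1.31 as a mean. The Ugt2 median was 2.27 with the lower floor and 1.79 with the offset, the Cyp2 median 2.21 with the offset, and the Cyp4 median 0.14 with the higher floor, its mean being 1.74. The bile acid and sterol median (0.05) was the bound of Cyp8b1, which lies at the floor and gives no usable ratio. The sign of this median therefore has no meaning. It was -0.030 on unscaled values, -0.027 with equal trimmed means, -0.13 after quantile and -0.14 after loess normalization. With the offset it was 0.57, and as a mean 0.48. The electron donor median (0.09) turned to -0.045 on unscaled values, -0.041 with equal trimmed means, -0.39 after quantile and -0.26 after loess normalization, -0.069 over all probe sets, -0.052 when shared-sequence probe sets were dropped, and -0.25 as a mean. The PAPS supply median (0.14) turned to -0.088 with the lower floor and its mean was 0.61, and the haem synthesis median (-0.17) was 0.17 over all probe sets. Bounds are computed against the floor and so move with it. Unscaled values keep the log2 shift of -0.131 (old minus young) that the scaling removed. The cause of the other shifts was not tested. The higher floor ended 13 of the 19 old calls and that of Cyp39a1: Cyp27a1 (0.01) and Cyp4v3 (0.11) fell under 2-fold, and the other 11 and Cyp39a1 were below that floor on both arrays. Over the 24 members past 2-fold or at 4 times the floor, 14 values were lost this way (12 with the higher floor, 2 with the mean over probe sets). Of the 202 that remained, 198 kept direction and side of the 2-fold rule, and 4 fell under it, these 2, Cyp2a12 with loess and Cyp1b1 over all probe sets. Over all genes the median log2 ratio was 0.03 as scaled here, -0.089 on unscaled values, -0.085 with equal trimmed means and -0.087 after quantile normalization. Leaving out an array was not possible. No paired analysis was possible because each group has 1 array.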

Other observations

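Several enzymes of these families could not be counted as members because their probe sets carry several symbols. The 3 probe sets for the Ugt1a locus, whose 8 symbols share their last exons, had signals of 1311 (old) and 714 (young) (1.84-fold), 502 and 252 (1.99-fold), and 206 and 104 (1.97-fold). They were thus above the floor on both arrays, unlike every UGT gene with a symbol of its own. The probe set shared by Cyp2a4 and Cyp2a5 had 250 against 7.16 (at least 3.39-fold). The one shared by Cyp4f16 and Cyp4f37 had 499 and 451 (1.10-fold). This was close to the probe set read for Cyp4f16 alone, whose other probe set gave 1.78-fold. Those for Cyp3a41a with Cyp3a41b and for Ugt2a1 with Ugt2a2 were below the floor on both arrays.

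The receptor gene Ahr lay 3.33-fold toward old, with a second probe set at a log2 ratio of 0.31. Of genes known as its targets, chosen after their values were seen and not from a fixed list, Cyp1b1 (2.68-fold), Ahrr (at least 4.73-fold) and Nqo1 (22.0-fold) lay past 2-fold toward young. Tiparp was within 2-fold (log2 ratio 0.65), and Cyp1a1, Cyp1a2 and Aldh3a1 were below the floor on both arrays. Also among such targets, Cyp2s1 lay at least 6.50-fold toward old. The Ugt1a probe sets lay 1.84-fold to 1.99-fold toward old. The part of Ahr in any of these differences was not tested. Other enzymes past 2-fold toward the young array were Ephx1, the microsomal epoxide hydrolase gene (6.42-fold), and the glutathione transferase gene Gstm5 (4.16-fold), again chosen after their values were seen.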
